A study of Homo sapiens with 2 samples.

Results

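The genes described here encode SMC (structural maintenance of chromosomes) proteins and condensin subunits: SMC1A, SMC2, SMC3, SMC4, SMC5, SMC6, NCAPD2, NCAPG, NCAPH and the cohesin subunit RAD21. These 10 genes, of 19819 protein-coding genes, were followed through the ING5 peaks whose summit lay within 1000 bp of one of their annotated transcription start sites (TSS). The peaks were selected on the distance of their summit to these starts and come from the peak list itself, so their presence, height, length and position are given as a description and none was tested. ING5 binds methylated lysine of histone H3 through its plant homeodomain finger and is a part of histone acetyltransferase complexes. The cells were HepG2, an established human liver cancer line, left untreated, with 1 ChIP-seq library made with an ING5 antibody and 1 input DNA library as its control. There were 12416160 fragments from the ING5 ChIP, set against 9915170 from input DNA, and 8608 peaks were called. There was no replicate of either library, so no difference was tested and intervals cover counting error only. Whether the chromatin carries the marks of liver cells was not analysed here, since the list holds no expression values. All positions are GRCh38.

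SMC proteins are long coiled-coil ATPases that pair up and are closed into a ring by a kleisin subunit. Cohesin (SMC1A, SMC3 and the kleisin RAD21) holds sister chromatids together and extrudes chromatin loops in interphase. Condensin I (SMC2, SMC4, the kleisin NCAPH and the HEAT-repeat subunits NCAPD2 and NCAPG) compacts chromosomes for mitosis, and the SMC5/6 complex acts in DNA repair and recombination.

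An ING5 peak stood at the start of 7 of the 10 genes, beside 30.9% of all protein-coding genes. Since the rule used these peaks, nothing is read from that count. All 3 cohesin genes had a peak, 3 of the 5 condensin I genes (SMC4, NCAPD2 and NCAPG) and 1 of the 2 SMC5/6 genes (SMC6). SMC2, SMC5 and NCAPH had none. Other ways of counting gave other shares of all genes beside these 10. With windows of 200, 500 and 3000 bp a peak stood at 3, 6 and 7 of the 10 genes, beside 13.5%, 25.7% and 32.9% of all genes. From canonical starts alone it stood at 5 (27.9% of all genes), and by any overlap of peak and window at 7 (31.4%). When the list was split at its median −log10 p, the peaks on the upper side stood at 5 (19.3%), with the 1000 most significant peaks at 1 (4.77%), with peaks of at least median fold at 4 (20.0%), and with peaks over the lowest local background at 3 (19.9%). The 7 genes carried 9 peaks in all, since NCAPG and RAD21 had 2 each. The peak of SMC4 was the highest, with 23.5-fold enrichment against 5.15-fold to 7.97-fold at the other 8. Fold enrichment is the pileup over the local background, as the authors' peak caller gave it, and the pileup counts the fragments that cover the summit.

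The promoter sequences that frame these results are shown for both starts of SMC4, the gene with the strongest peak, and for NCAPG and SMC2. The start of NCAPG lay between 2 peaks, and SMC2 is the SMC4 partner without a peak. The sequences come from RefSeq (build GRCh38.p14), 5′ to 3′ on the plus strand. Of the 10 genes, 9 had a sequence. Each sequence begins 250 bases before the RefSeq start and, except at the downstream start of SMC4, ends 30 bases into the transcript. At that downstream start only 203 bases are printed, which end before the RefSeq start at 160400559. All of them lie inside the ING5 peak, while the sequence at the canonical SMC4 start ends before that peak begins at 160399692. The positions are chr3:160399400-160399679 and chr3:160400309-160400511 for SMC4, chr4:17810729-17811008 for NCAPG and chr9:104094059-104094338 for SMC2. Capitals mark matches to the short motifs described further on.
SMC4, canonical start: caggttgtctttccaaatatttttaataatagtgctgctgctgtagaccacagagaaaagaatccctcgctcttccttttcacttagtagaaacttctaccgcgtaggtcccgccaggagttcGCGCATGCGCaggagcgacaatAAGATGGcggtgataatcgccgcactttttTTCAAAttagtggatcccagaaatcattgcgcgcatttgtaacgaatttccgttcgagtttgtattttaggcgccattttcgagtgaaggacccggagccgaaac
SMC4, downstream start: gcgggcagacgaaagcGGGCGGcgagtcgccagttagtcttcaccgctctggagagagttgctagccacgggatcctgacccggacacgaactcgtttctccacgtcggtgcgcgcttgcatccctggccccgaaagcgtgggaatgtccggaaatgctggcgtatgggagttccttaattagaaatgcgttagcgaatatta
NCAPG: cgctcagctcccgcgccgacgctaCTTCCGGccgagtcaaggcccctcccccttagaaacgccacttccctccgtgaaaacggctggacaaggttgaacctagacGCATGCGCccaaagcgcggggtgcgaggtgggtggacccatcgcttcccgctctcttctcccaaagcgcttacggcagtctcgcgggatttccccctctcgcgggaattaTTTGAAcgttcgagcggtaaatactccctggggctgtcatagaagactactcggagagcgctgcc
SMC2: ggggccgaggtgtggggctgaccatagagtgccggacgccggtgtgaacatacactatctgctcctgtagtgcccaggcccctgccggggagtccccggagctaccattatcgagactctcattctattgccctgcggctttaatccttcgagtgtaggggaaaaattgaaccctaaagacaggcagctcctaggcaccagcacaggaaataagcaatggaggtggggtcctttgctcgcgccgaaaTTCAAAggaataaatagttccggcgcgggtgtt

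SMC4, the ATPase that pairs with SMC2 in both condensins, had a peak of 1915 bp on chromosome 3 from 160399692 to 160401606. Its summit at 160401049 was covered by 47 fragments (exact Poisson 95% interval 34.5 to 62.5). The peak had a −log10 p of 60.7 and ranked 22 of 8608 by that value, 17 by fold enrichment, 38 by pileup and 66 by length. Among the 6527 promoter peaks, whose median fold enrichment was 6.66 (quartiles 5.56 and 8.09), it was among the 10 with the highest fold.

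The SMC4 peak began 42 bp downstream of the canonical TSS and ran to 1956 bp, with its summit at 1399 bp, in intron 2. It covered 58 bases of exon 1 and all 144 bases of exon 2. Among the 6609 summits no more than 3000 bp from a canonical TSS, 6.64% lay at least as far downstream, and the median was 397 bp downstream. The TSS that brought the peak within the 1000 bp window was a second, downstream start of a protein-coding SMC4 transcript at 160400482. That start lay inside the peak, 832 bp downstream of the canonical one and 567 bp upstream of the summit. RefSeq places a downstream start 77 bp further on, 490 bp from the summit. By the 567 bp to the start used for the window, the summit was the most distant of any peak counted for these genes. The nearest TSS of 15.3% of promoter summits was at least as far. Measured from canonical starts alone, SMC4 would have had no promoter peak.

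No other gene had a TSS within 1000 bp of the SMC4 summit. The nearest start of IFT80, an intraflagellar transport gene read in the other direction, lay 1169 bp away. The hairpins of MIR15B and MIR16-2, microRNAs hosted by SMC4, began 3539 bp and 3696 bp downstream of the summit.

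**Figure D1:**
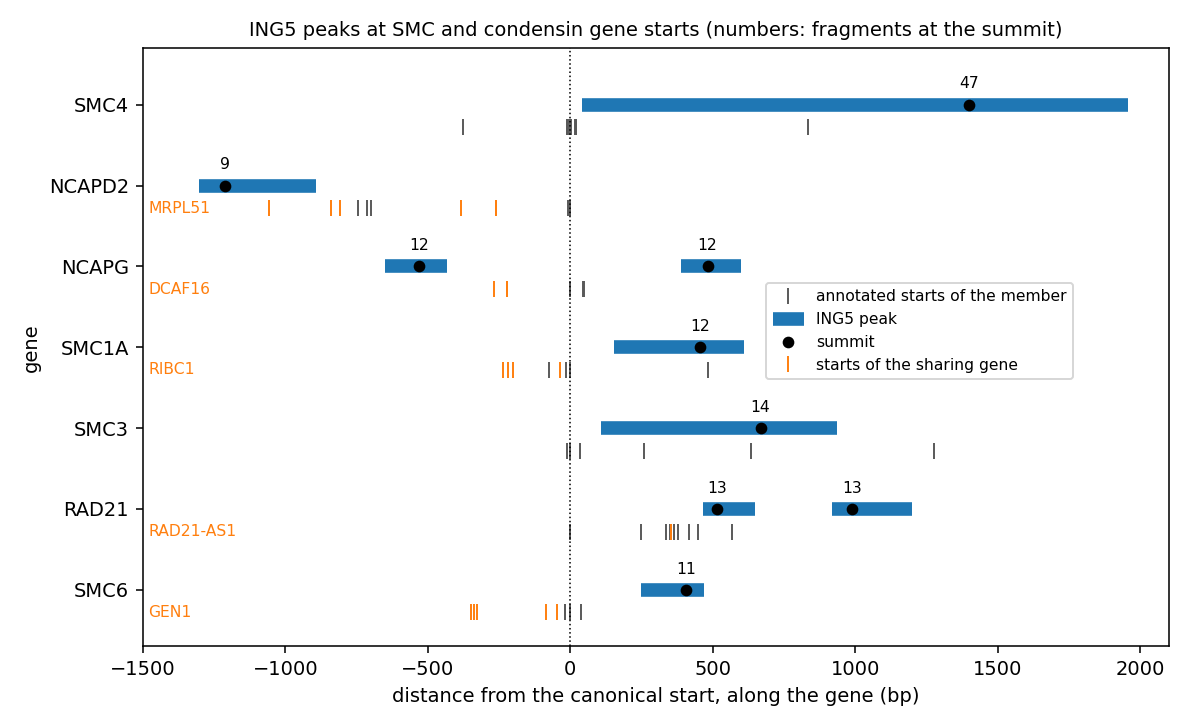
ING5 peaks (blue bars) and summits (black points, with the number of fragments) at the 7 genes with a promoter peak, in bp from the canonical start along each gene. Grey ticks are the annotated starts of the gene and orange ticks those of a gene that shares the peak. The SMC4 peak runs from 42 to 1956 bp, while the peaks of NCAPG lie on both sides of its start.

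The other condensin I genes with a peak were NCAPD2 and NCAPG. NCAPD2, a HEAT-repeat subunit, had 9 fragments (4.12 to 17.1) over 410 bp on chromosome 12 from 6492799 to 6493208, with 5.40-fold enrichment. The summit lay 466 bp upstream of the nearest NCAPD2 TSS and 1212 bp upstream of the canonical one. It was closer to MRPL51, a mitochondrial ribosomal protein gene on the opposite strand, 156 bp downstream of whose nearest TSS it stood, in exon 2. From canonical starts alone NCAPD2, like SMC4, would have had no promoter peak.

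NCAPG, the other HEAT-repeat subunit, had 2 narrow peaks of equal height on chromosome 4. The upstream one covered 218 bp from 17810329 to 17810546 and the downstream one 211 bp from 17811366 to 17811576. Each had 12 fragments (6.20 to 21.0) and 7.01-fold enrichment. Their summits lay 532 bp upstream and 481 bp downstream of the canonical TSS and 1013 bp apart, with 819 bases between the peaks, so the NCAPG sequence printed above lay wholly in the gap. The upstream summit stood 264 bp downstream of the nearest start of DCAF16, a ubiquitin ligase receptor gene read in the other direction, in its exon 1. Both peaks were therefore within 1000 bp of 2 genes.

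All 3 cohesin genes had peaks of like height. SMC3, an ATPase of the cohesin ring, had 14 fragments (7.65 to 23.5) over 829 bp on chromosome 10 from 110567804 to 110568632. Its fold enrichment of 7.97 was the highest after SMC4. The summit lay in intron 1, 667 bp downstream of the canonical TSS and 35 bp downstream of another annotated one, and no other gene shared it. SMC1A, the partner of SMC3, had 12 fragments (6.20 to 21.0) over 457 bp on the X chromosome from 53422045 to 53422501, with 7.01-fold enrichment. Its summit lay in intron 1, 454 bp downstream of the canonical TSS, and 490 bp upstream of RIBC1, which is read in the other direction.

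RAD21, the kleisin that closes the cohesin ring, had 2 peaks on chromosome 8, both in intron 1. The first, from 116874130 to 116874312, covered 183 bp with 13 fragments (6.92 to 22.2), 6.23-fold enrichment and its summit 514 bp downstream of the canonical TSS. The second, from 116873578 to 116873858, covered 281 bp with 13 fragments, 6.07-fold enrichment and its summit at 988 bp. Their summits were 474 bp apart, and both lay upstream of the antisense gene RAD21-AS1. Unlike those of NCAPG, both peaks of RAD21 lay on the same side of its canonical start. Measured from the nearest annotated RAD21 start, however, the first summit lay 53 bp upstream and the second 421 bp downstream. The contrast with NCAPG thus holds for canonical starts alone. Of all genes with a promoter peak, 23.0% had 2 or more.

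SMC6, which pairs with SMC5, had 11 fragments (5.49 to 19.7) over 223 bp on chromosome 2 from 17753341 to 17753563. Its 5.15-fold enrichment was the lowest of these genes. The summit lay 405 bp downstream of the canonical TSS, in intron 1, and 453 bp upstream of GEN1, a Holliday junction resolvase gene read in the other direction.

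Leaving out SMC4, the counting intervals of all 8 peaks overlapped, so these data do not order the other genes. Their median fold enrichment was 6.62, against 6.66 over all promoter peaks, and 49.2% of promoter peaks lay at or below it. SMC4 was 2.95 times the next highest, SMC3, in fold enrichment, 3.36 times in pileup and 2.31 times in length. The local background, recovered from pileup and fold, was the genome-wide 0.853 fragments at 4 of the 9 peaks (SMC1A, NCAPD2 and both of NCAPG), beside 60.5% of all peaks. It was 1.04 at SMC4, 0.882 at SMC3, 1.33 at SMC6, and 1.25 and 1.31 at the first and second peak of RAD21. Its part in the fold enrichments was not tested.

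**Figure D2:**
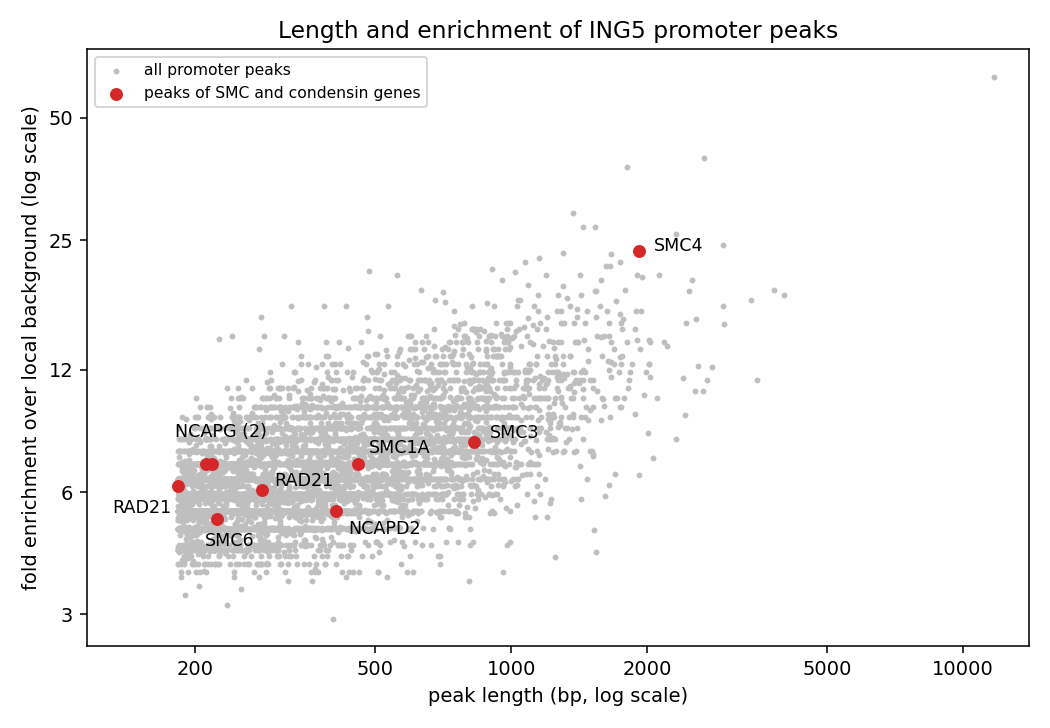
Fold enrichment over local background against peak length in bp, both on log scales, for the 9 peaks of SMC and condensin genes (red) and all 6527 promoter peaks (grey). SMC4 lies among the longest and strongest peaks with 1915 bp and 23.5-fold, and the other 8 lie between 5.15-fold and 7.97-fold.

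Most of these peaks stood at promoters shared with another gene. Of the 9 peaks, 7 had a TSS of a further gene within 1000 bp of the summit, and those of SMC3 and SMC4 had none. Of all 6527 promoter peaks, 40.7% had one. The 7 peaks belonged to 5 genes, since NCAPG and RAD21 had 2 each. Counting protein-coding genes alone, 5 of the 9 were shared (SMC1A, SMC6, NCAPD2 and both of NCAPG), beside 18.7% of promoter peaks. Within 3000 bp of any annotated gene 8 were shared, beside 51.1%, and the one left was that of SMC3. The sharing gene was read in the other direction in all 7, and such a peak cannot be given to one gene or the other. At NCAPD2 and at the upstream peak of NCAPG the summit lay downstream of a start of the sharing gene and upstream of that of the condensin gene; at the other 5 it lay upstream of the sharing gene.

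The 3 genes without a peak differed in their surroundings. SMC2, the ATPase common to both condensins, had its nearest summit 1.354 Mb downstream on chromosome 9, at FSD1L. SMC5 had its nearest 1.479 Mb upstream on the same chromosome, at PABIR1. Within 1 Mb of either start there was no peak at all, although 11 and 7 other protein-coding genes start there. SMC2 lay in a stretch of 5.10 Mb between neighbouring summits, a length reached by 83 of 8566 such stretches, and SMC5 in one of 2.99 Mb, reached by 188. Of all protein-coding genes, 7.11% lay over 1 Mb from any summit. NCAPH, the condensin I kleisin, lay in a richer region. It had 11 peaks within 1 Mb, and 11 of the 26 other genes there had a promoter peak. Its nearest summit was 69.3 kb away, within 1000 bp of starts of CIAO1 and TMEM127. No gene lay near the edge of the 1000 bp window: SMC4 with 567 bp was the last inside it and NCAPH with 69.3 kb the first outside. At this depth a peak that was not called does not show that ING5 was absent.

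Several of the genes with a peak had few other peaks around them. The only peaks within 1 Mb of RAD21, NCAPG and SMC6 were their own 2, 2 and 1, and SMC4 had 3 there. SMC3 had 5, SMC1A 8 and NCAPD2 27. The median over all genes with a promoter peak was 12, and 10.9% of them had 3 or fewer. None of the 5 other protein-coding genes around RAD21 had a promoter peak.

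Promoter sequence was not used by the rule and was compared in windows of 280 bases, 250 before the RefSeq start and 30 from it on. None of these windows at canonical starts overlapped an ING5 peak of its gene, so their letters are not those under the peaks. Only the window at the downstream start of SMC4 lay inside a peak. SMC4 had the lowest share of G and C bases of the 9 genes with sequence, 46.1%, against a median of 63.6% over 15208 coding promoters. Yet it held 20 CpG dinucleotides, which made a CpG observed over expected ratio of 1.35, above 99.9% of those promoters. The window at its downstream start had 53.9% G and C and a ratio of 1.24. SMC5, without a peak, had a ratio of 1.24 as well, and NCAPH, also without one, 1.05. SMC2 had 0.694, the lowest of the 9 and below the median of 0.780 over all promoters. The other genes with a peak were SMC1A with 1.02, SMC3 with 0.971, SMC6 with 0.926, NCAPD2 with 1.01 and NCAPG with 1.08. The ranges of genes with and without a peak overlapped.

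**Figure D3:**
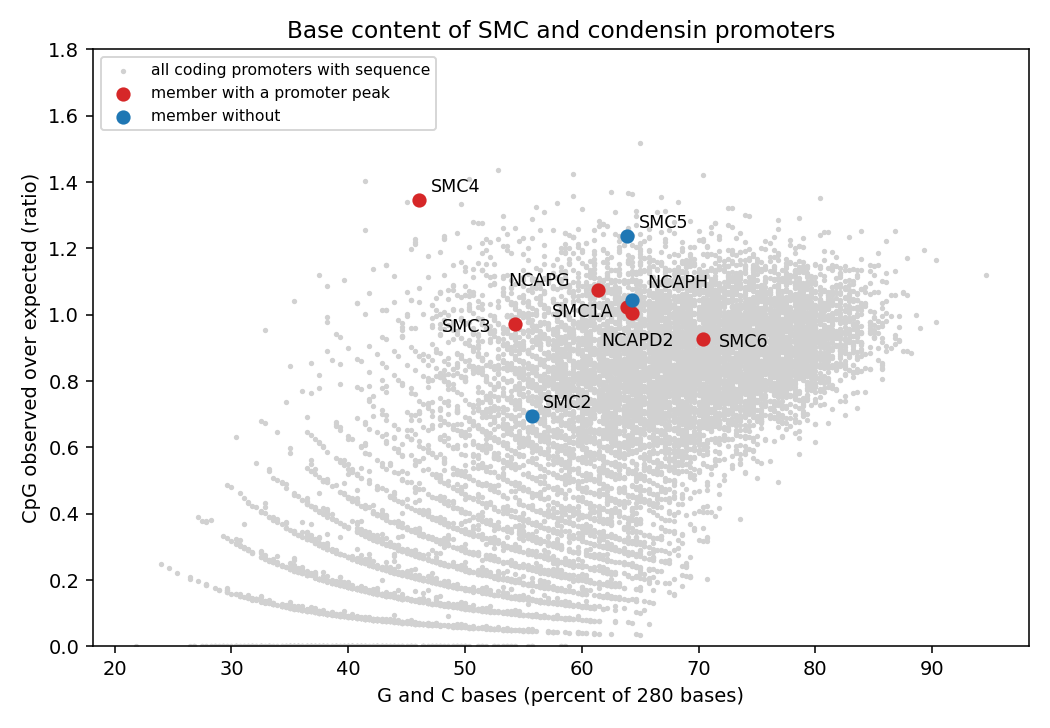
CpG observed over expected against the percentage of G and C bases in 280 bases at the start of the 9 genes with sequence, with a promoter peak (red) or without (blue), and of 15208 coding promoters (grey). SMC4 sits at 46.1% and 1.35, with a ratio above that of 99.9% of these promoters. The ratios of SMC5 and NCAPH, without a peak, lie within the range of the genes with one.

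The windows were searched on both strands for short motifs, and a match is a description of letters, not a binding site. TTTGAA, the letters of the cell cycle genes homology region through which the MuvB complex acts on genes of late cell cycle phases, stood in 5 of the 9 windows (SMC2, SMC3, SMC4, NCAPD2 and NCAPG), beside 11.1% of all promoters. It began 35 bases before the start in NCAPG, and on the minus strand 75 bases before it in SMC4 and 3 bases before it in SMC2, as the printed TTCAAA shows. CCAAT stood in NCAPD2, with 4 matches on the minus strand, and in NCAPH, beside 36.0% of promoters. GCGCATGC, of the NRF1 motif, stood in SMC4 as 2 overlapping matches and in NCAPG (4.29% of promoters; these letters were shortened after a longer form had been seen to match SMC4 alone of the 9), and AAGATGG, of the YY1 motif, in SMC4 (5.73%). GGGCGG stood in 6 windows, at SMC1A, SMC3, SMC5, SMC6, NCAPD2 and NCAPH (61.0% of promoters), and also at the downstream start of SMC4. There it began 234 and 33 bases before the RefSeq start, the latter beyond the printed bases. CCGGAAG, of the ETS family, stood in SMC1A, SMC6 and NCAPG (14.5%), and TTTCCCGC, of the E2F family, in SMC1A (2.21%). No window held TTTGGCGC (0.875% of promoters), TTCGAA (1.49%), TATAAA (9.19%) or TGACGTCA (2.74%). SMC4 and SMC2, which had the strongest peak and none, thus had TTTGAA in common.

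Genes that work with these complexes were followed in 5 further lists of 35 genes, 19 of which had a promoter peak, beside 30.9% of all genes. The lists were chosen with earlier results of these data known, so nothing is read from that count either. Cohesin regulators had one at 8 of 13. NIPBL, the cohesin loader, had 45 and 39 fragments at its 2 peaks, 11.1-fold and 10.4-fold over raised local backgrounds of 3.13 and 2.85 fragments. MAU2, its partner, reached 11.9-fold with 21 fragments, and the release factor WAPL 9.17-fold with 16. PDS5A, which binds the cohesin ring, reached 9.71-fold, and ESCO1 and ESCO2, which acetylate SMC3, 10.3-fold and 7.55-fold. The ESCO2 summit lay 387 bp downstream of its nearest ESCO2 start but 2.2 kb upstream of the canonical one. It was closer to CCDC25, standing 271 bp downstream of a start of that gene. SGO2, which protects centromeric cohesin, reached 10.3-fold, and ESPL1, the separase that cleaves RAD21, 5.22-fold. PDS5B, CDCA5, HDAC8, SGO1 and PTTG1 had none.

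Other subunits and partners of the complexes made up 3 lists. Of 6 other cohesin core genes, STAG1 and STAG2, which bind RAD21 in somatic cells, had 4.64-fold and 5.40-fold with 8 and 9 fragments. The STAG2 summit lay 137 bp upstream of its nearest start but 1.6 kb upstream of its canonical TSS. The 4 without a peak were STAG3, SMC1B, RAD21L1 and REC8, all known as germ cell forms. Of 3 condensin II genes NCAPG2 had a peak, at 6.89-fold, while NCAPD3 and NCAPH2 had none; the nearest summit to NCAPH2 lay 1190 bp upstream, just outside the window, at LMF2. Of 7 partners of SMC5 and SMC6, SLF1, which recruits the complex to damaged DNA, had 3 peaks of up to 10.4-fold. The kleisin gene NSMCE4A had 7.55-fold, and NSMCE1 and NSMCE2, which encode ligases for ubiquitin and SUMO, 4.86-fold each. NSMCE3, EID3 and SLF2 had none.

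Of 6 other genes of chromosome structure, CTCF, the boundary protein at which cohesin stops, reached 16.2-fold with 29 fragments. MKI67, which coats mitotic chromosomes, reached 15.1-fold with 27. SMCHD1, an SMC-hinge protein of X inactivation, reached 10.6-fold and TOP2A, a topoisomerase of dividing cells, 8.04-fold, while TOP2B and KIF4A had no peak. SMC4 had a higher fold enrichment than any gene of these 5 lists. Its pileup of 47 fragments (34.5 to 62.5) and that of NIPBL with 45 (32.8 to 60.2) had overlapping counting intervals. The intervals of CTCF with 29 fragments (19.42 to 41.65) and MKI67 with 27 (17.79 to 39.28) also overlapped that of SMC4.

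**Figure D4:**
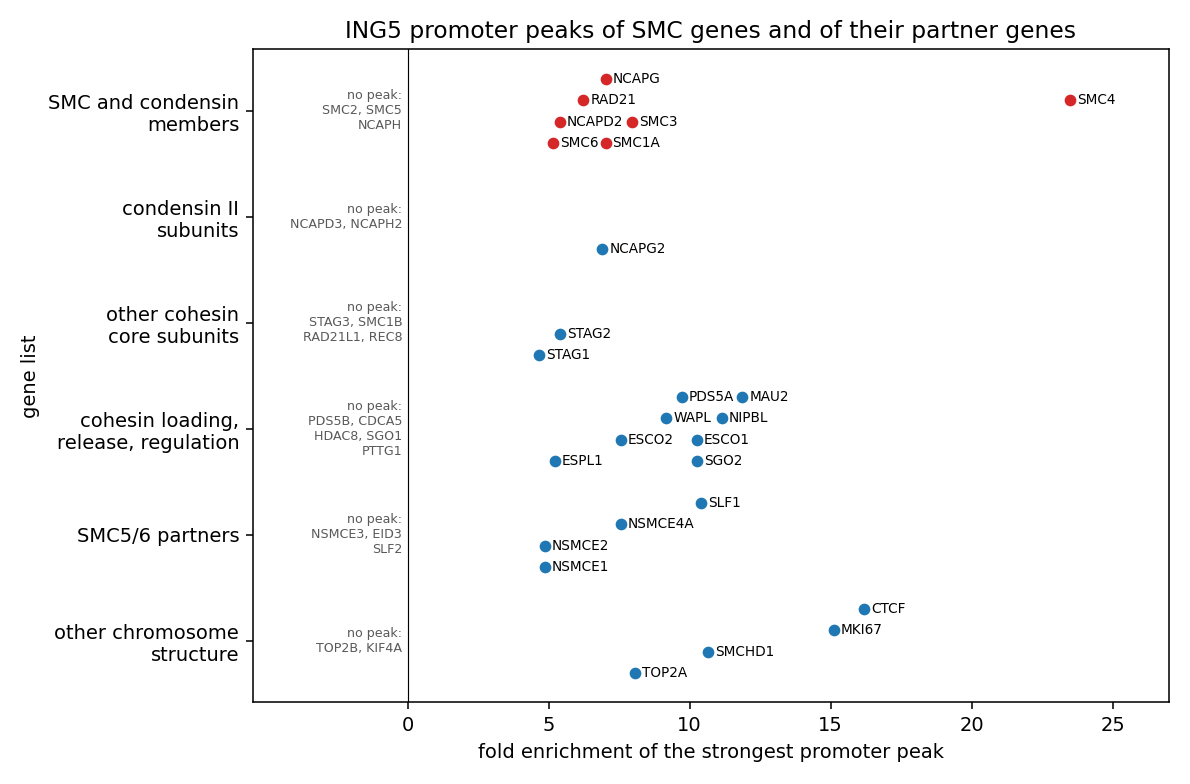
Fold enrichment of the strongest promoter peak of each SMC and condensin gene (red) and of each gene in the 5 partner lists (blue), with genes without a peak named at the left. SMC4 at 23.5-fold lies to the right of all others, followed by CTCF at 16.2-fold.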

How the data were processed

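ING5 ChIP and input DNA from HepG2 cells were compared in 1 deposited peak list. Per the file headers, MACS2 2.1.1.20160309 called the peaks from read pairs, with p up to 1e-05; fastp 0.19.6 and Bowtie2 are named per the submitters' processing notes. The deposited pileup is a coverage signal, with only whole values. The fold enrichment, as deposited, is a ratio on the linear scale with a pseudocount of 1, and the deposited significance is −log10 p; all were used as the authors' values for single peaks. The labels name GRCh37, but sequence names in the list belong to GRCh38, so start sites were taken from the GRCh38 exon positions recorded by GENCODE 44; nothing was converted. A peak counted for a gene when its summit was no more than 1000 bp from an annotated TSS. The local background was recovered from pileup and fold, and its lowest value, within 0.001 fragments, was taken as genome-wide. Intervals are exact Poisson at 95%. Promoter sequences are from RefSeq, for 15208 of 19819 coding genes, and for each gene the start nearest the canonical TSS was used. Peak assignment was tested on simulated data: all 130 summits planted within the window, for 200 genes, were recovered at their offset. Genes named were the 10 themselves, genes sharing their peaks, list genes with a peak and, added after their values were seen, list genes without one and the neighbours of SMC4. The genes, lists and motifs were chosen with earlier results of these data known, and the NRF1 letters were shortened after the matches of a longer form had been seen, which added NCAPG. The planned comparison of protein sequences was not run. Python 3.11.15, pandas 2.3.3 and scipy 1.17.1 were used.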

Additional observations from a re-analysis of the deposited data

How the results depend on the processing

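With 1 library of each kind, and peaks of 9 to 14 fragments at all of these genes but SMC4, counting error limits what can be ordered. The count of 7 genes with a promoter peak was 3 with a window of 200 bp (SMC1A, SMC3 and RAD21), 1 among the 1000 most significant peaks (SMC4), 4 with fold enrichment at or above the median of the list, and 3 when only peaks over the genome-wide background were kept, a setting chosen after seeing the data. These settings keep fewer peaks by construction. The count was 6 at 500 bp, where SMC4 was lost, and 5 from canonical starts alone, without SMC4 and NCAPD2. It was 5 among peaks on the upper side of the median −log10 p, and 7 both at 3000 bp and with any overlap of the peak with the window.

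Offsets from the canonical in place of the nearest TSS turned from −27 to 454 bp at SMC1A and from −53 to 514 bp at the first peak of RAD21, and became 667 bp at SMC3, 1399 bp at SMC4, 405 bp at SMC6, −1212 bp at NCAPD2, 481 bp at the downstream peak of NCAPG and 988 bp at the second of RAD21. The rank of SMC4 was 1 by fold enrichment, pileup, −log10 p and length.

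Of the 6 other cohesin core genes 1 had a peak at 200 bp and at 500 bp and 0 in the more significant part and among the top 1000. Condensin II had 2 of 3 at 3000 bp and 0 among the top 1000, and cohesin regulators 2 of 13 at 200 bp and 4 among the top 1000. Partners of SMC5 and SMC6 had 2 of 7 in the more significant part and 1 among the top 1000, and other chromosome genes 2 of 6 at 200 bp. The shares of all genes were 13.5% at 200 bp, 25.7% at 500 bp and 32.9% at 3000 bp. They were 19.3% in the more significant part and 4.77% among the top 1000. Of the CpG ratios, SMC4 had 1.59, SMC1A 1.2 and SMC2 0.800 in windows of 200 bases; the other 6 moved by less than 0.1. No paired analysis was possible because each group has 1 library and no test was run.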

Other observations

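Some partner genes had more than 1 peak or shared one with another gene. Of the 19 partner genes with a promoter peak, 8 had 2 or more, as had 2 of the 7 SMC and condensin genes, beside 23.0% of all genes with a promoter peak. At WAPL the summits lay 432 bp downstream and 483 bp upstream of the canonical TSS, with 16 and 14 fragments, an arrangement like that of NCAPG. At MAU2 they lay 299 bp downstream and 602 bp upstream, with 21 and 14 fragments. SGO2 had its higher peak, of 18 fragments, at a start 16.4 kb upstream of its canonical TSS, where the summit stood 265 bp downstream of KCTD18, and a lower one of 13 fragments 445 bp downstream of the canonical TSS.

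Of the 28 partner peaks, 17 had a start of a further gene within 1000 bp, 8 of them of a protein-coding gene, beside 40.7% and 18.7% of all promoter peaks. The coding ones were SUGP1 beside MAU2, CCDC25 beside ESCO2, KCTD18 beside SGO2, WASHC5 beside NSMCE2 and KIAA0825 beside SLF1. These values were looked at after the lists had been counted, and no difference was tested.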
